A study of Homo sapiens with 6 samples.

Results

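The synthesis, uptake and export of cholesterol were followed through 33 genes in cells of a breast cancer line and its lymph node derivative, profiled by bulk RNA-seq. The genes were chosen by name from the 61541 genes of the deposited count table: 20 enzymes of the synthesis pathway, 5 genes of the sterol-sensing SREBP system, 4 genes of sterol uptake, movement and storage, and 4 genes of export. The derivative, MDA-MB-231-D3H2LN (MDA231-LN), was set against the parental line MDA-MB-231. The parental line comes from a metastatic, hormone receptor-negative breast adenocarcinoma, and the derivative is known as a luciferase-carrying line recovered from a lymph node metastasis in a mouse. There were 3 libraries of total RNA per line, and both lines were grown in high-glucose medium with 10% fetal bovine serum, which itself supplies cholesterol. Each line stands for 1 line only, so lymph node origin cannot be told apart from anything else that differs between them. Whether the 3 libraries came from separate cultures is not stated, and the p-values then describe the spread among libraries, which may be technical.

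Mammalian cells build cholesterol from acetyl-CoA through mevalonate, isoprenoid units, squalene and lanosterol. When membrane sterol in the endoplasmic reticulum is low, the escort protein SCAP carries SREBP transcription factors to the Golgi, where cleavage releases them to switch on synthesis and uptake genes. When sterol is plentiful, INSIG proteins hold SCAP back, and oxysterols activate the LXR receptors, which switch on export. Tumor cells draw on both synthesis and serum lipoproteins for membrane growth.

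The libraries held 17661542 to 18882719 counted fragments in MDA231-LN and 16461578 to 19171017 in the parental line. Levels are given as CPM, counts scaled to a common library total, and the first principal component of their log2 values took up 86.5% of the variance. Differences were widespread: at an adjusted p under 0.05 (edgeR quasi-likelihood test over 14176 genes) 31.6% of tested genes were higher and 31.2% lower in MDA231-LN, 62.8% in all. Below, a gene that "rose" passed that test with a higher level in MDA231-LN, and one that "fell" passed it with a lower level. Of the mesenchymal markers looked up, VIM, CD44, AXL and CAV1 lay between 519 and 2125 CPM in every library. ESR1, PGR and CDH1 were at 1.11 CPM or less, whereas the epithelial genes KRT8 (558 to 643 CPM) and EPCAM (11.6 to 17.7 CPM) were present in both lines. Of the markers of other cells, PECAM1 (6.91 to 10.9 CPM) was detected throughout, and PTPRC, CD3E, CDH5, PDGFRA, DCN, LUM, ALB and APOB were each at 0.874 CPM or less.

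Most of the cholesterol genes were modestly lower in MDA231-LN. Of the 33 genes 29 had enough counts to be tested; 20 fell, 3 rose and 6 did not pass, against the 31.2% lower and 31.6% higher among all tested genes. Their median log2 fold change was -0.35, and that of all tested genes 0.02. A difference of at least 2-fold was seen in 4 of them, all lower, where 20.6% of all tested genes differed that much (13.0% higher and 7.53% lower). The libraries of the lines did not overlap for 24 of the 29 genes, against 66.6% of all tested genes. No test was made of the set as a whole, and the scaling method moves small differences: with upper-quartile scaling the median of all tested genes was 0.13, and 18 of the cholesterol genes fell and 5 rose.

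**Figure D1:**
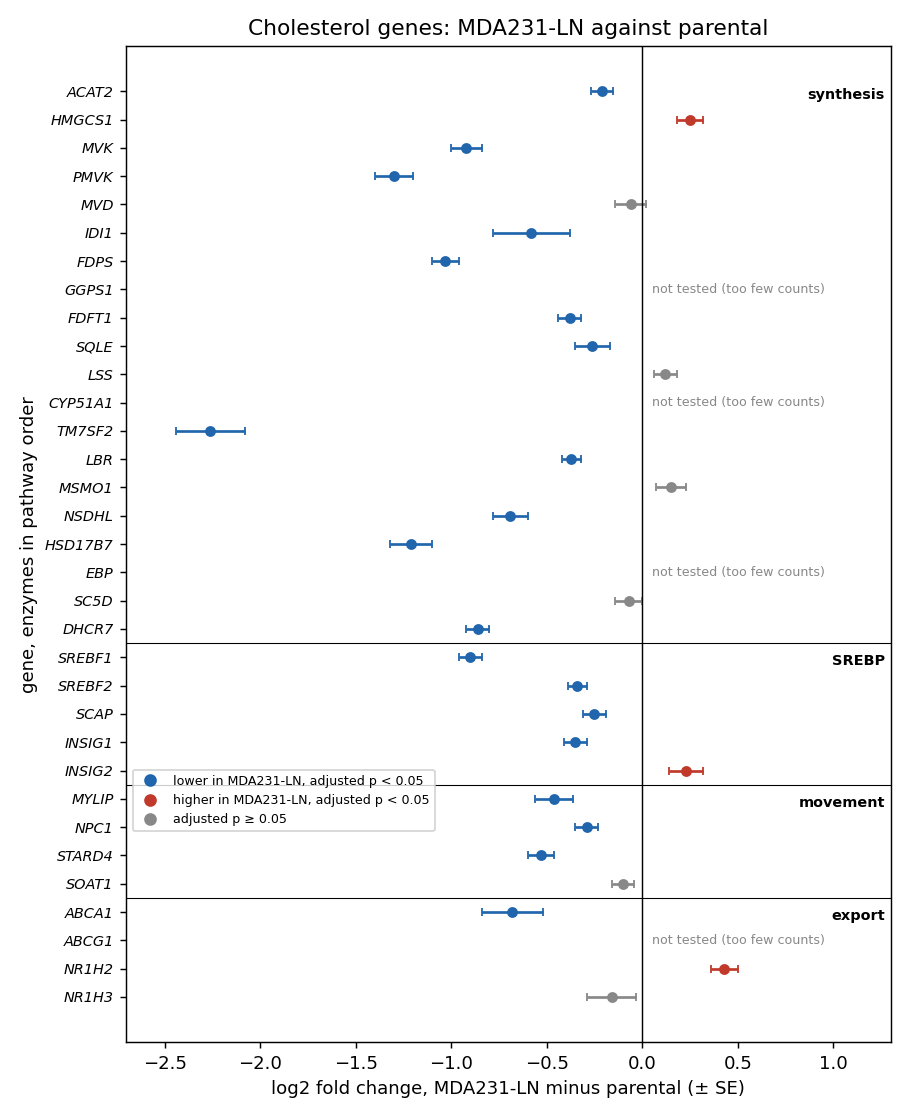
Log2 fold change (MDA231-LN minus parental, ± SE) of the 29 tested genes, with 4 more listed as not tested, enzymes in pathway order from top to bottom, then SREBP regulators, movement and storage, and export. Most points lie left of 0, with TM7SF2 farthest at -2.26, and HMGCS1, INSIG2 and NR1H2 are the 3 genes that rose.

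At the head of the pathway, ACAT2, the cytosolic thiolase that joins 2 acetyl-CoA units, was at 108, 114 and 109 CPM in MDA231-LN and at 127, 128 and 127 CPM in the parental line. It fell slightly (log2 fold change -0.21 ± 0.06 SE, edgeR adjusted p = 0.00327), but upper-quartile scaling ended the call (adjusted p = 0.152), and 52.3% of its exonic bases lie inside neighbouring genes, whose shared reads were not counted. HMGCS1, the synthase of the next step and a classical SREBP target, went the other way, with 73.1, 71.1 and 74.4 CPM in MDA231-LN and 63.6, 60.8 and 59.1 CPM in the parental line. Its rise was small (log2 fold change 0.25 ± 0.07, edgeR adjusted p = 0.00206), and no other synthesis enzyme rose in this test. The other genes of its 10-Mb chromosome window had a median log2 fold change of 0.23.

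The kinases that activate mevalonate fell together. MVK, mevalonate kinase, had 34.8, 39.8 and 38.5 CPM in MDA231-LN and 73.6, 70.4 and 70.3 CPM in the parental line (log2 fold change -0.92 ± 0.08, edgeR adjusted p = 4.90e-11). PMVK, which adds the next phosphate, had 16.3, 22.6 and 18.3 CPM in MDA231-LN and 45.9, 50.5 and 44.1 CPM in the parental line (log2 fold change -1.30 ± 0.10, edgeR adjusted p = 3.67e-11). In each case every MDA231-LN library lay well below every parental library. MVD, the decarboxylase that follows them, did not pass: it stood at 41.7 ± 3.42 CPM in MDA231-LN and 43.6 ± 1.73 CPM in the parental line (SD, n = 3 each), with overlapping libraries.

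IDI1, which interconverts the 5-carbon isoprenoid units, could be read only in part, because 79.1% of its exonic bases lie inside an antisense gene. On what remained it had 3.79, 5.54 and 4.16 CPM in MDA231-LN and 6.34, 7.35 and 6.48 CPM in the parental line (log2 fold change -0.58 ± 0.20, edgeR adjusted p = 0.0142). That call was lost without MDA231-LN replicate 1 (edgeR adjusted p = 0.0704) or replicate 3 (adjusted p = 0.0510). FDPS, farnesyl diphosphate synthase, was at 51.5, 54.7 and 60.0 CPM in MDA231-LN and at 114, 111 and 115 CPM in the parental line, a clear separation (log2 fold change -1.03 ± 0.07, edgeR adjusted p = 6.27e-13). An antisense gene covers 38.1% of its exonic bases, and reads there were counted for neither gene. FDPS also has 8 annotated pseudogene copies, and reads that fit several places were not counted. GGPS1, which makes the geranylgeranyl diphosphate used to anchor small GTPases, was not measured: 97.4% of its exonic bases lie inside other genes and it was listed with 0 counts in every library.

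The step that commits isoprenoids to sterols is catalysed by squalene synthase, FDFT1. FDFT1 had 71.8, 72.4 and 72.5 CPM in MDA231-LN and 92.4, 95.9 and 94.6 CPM in the parental line (log2 fold change -0.38 ± 0.06, edgeR adjusted p = 7.05e-06). SQLE, the squalene epoxidase that acts next and is a flux-controlling enzyme, had 32.5, 37.0 and 34.0 CPM in MDA231-LN and 43.3, 43.2 and 37.9 CPM in the parental line. The SQLE fall was smaller (log2 fold change -0.26 ± 0.09, edgeR adjusted p = 0.0111) and was no longer called with upper-quartile scaling (adjusted p = 0.134) or without MDA231-LN replicate 1 (adjusted p = 0.0677). LSS, which closes the rings to give lanosterol, was at 142, 140.0 and 145 CPM in MDA231-LN and 132, 133 and 129 CPM in the parental line. Its libraries did not overlap, yet the log2 fold change of 0.12 ± 0.06 missed the threshold (edgeR adjusted p = 0.0721); DESeq2 called it higher (adjusted p = 0.0417), as did RLE scaling (adjusted p = 0.0461), the 1 CPM filter (adjusted p = 0.0424) and upper-quartile scaling (adjusted p = 8.06e-04).

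Lanosterol is then trimmed and reduced. CYP51A1, the 14-demethylase, was not measured, with 99.8% of its exonic bases inside other genes and at most 18 counts in a library. The sterol 14-reductase step can be carried out by TM7SF2 or by LBR, the lamin B receptor of the inner nuclear membrane, and these differed in size of change. TM7SF2 (chromosome 11, 65111845 to 65116384 in the deposited table, GRCh38) showed the largest difference of the 29 genes tested: it had 57, 46 and 47 counts in MDA231-LN and 211, 213 and 214 counts in the parental line, or 2.92, 2.55 and 2.42 CPM in MDA231-LN and 12.9, 13.5 and 11.5 CPM in the parental line. It thus reached 20.9% of the parental level (log2 fold change -2.26 ± 0.18, edgeR adjusted p = 2.99e-11). LBR was at 194, 193 and 183 CPM in MDA231-LN and at 246, 245 and 245 CPM in the parental line (log2 fold change -0.37 ± 0.05, edgeR adjusted p = 1.33e-06). Per exonic kilobase TM7SF2 had the lower RNA level of the 2 in both lines, at a ratio to LBR of 0.0213 in MDA231-LN and 0.0793 in the parental line. The counts hold intronic reads while the length is exonic, so this ratio is approximate, and enzyme protein was not measured.

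MSMO1, the sterol 4-methyl oxidase, was not called, at 75.7 ± 3.01 CPM in MDA231-LN and 68.5 ± 8.85 CPM in the parental line (SD, n = 3 each). Leaving out parental replicate 2, the highest of that line at 78.0 CPM, made it a gene called higher (edgeR adjusted p = 0.00814), as did upper-quartile scaling (adjusted p = 0.00539). Its partners in removing the 4-methyl groups fell. NSDHL, the dehydrogenase, had 28.2, 29.7 and 27.7 CPM in MDA231-LN and 44.1, 48.9 and 44.7 CPM in the parental line (log2 fold change -0.69 ± 0.09, edgeR adjusted p = 9.36e-08). HSD17B7, the 3-keto reductase, had 13.0, 11.8 and 16.2 CPM in MDA231-LN and 32.7, 30.0 and 32.2 CPM in the parental line (log2 fold change -1.21 ± 0.11, edgeR adjusted p = 7.07e-10). Both genes separated the lines without overlap. HSD17B7 has 2 annotated pseudogene copies, 1 of them with 546 counts over the 6 libraries, so its own level is uncertain.

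Of the last steps, the isomerase EBP was not measured, with 1 count over the 6 libraries and 73.1% of its exonic bases inside other genes. SC5D, the lathosterol desaturase, did not pass, at 65.8 ± 1.57 CPM in MDA231-LN and 69.1 ± 2.23 CPM in the parental line (SD, n = 3 each). DHCR7, the reductase that finishes cholesterol and consumes the precursor of vitamin D, had 98.3, 93.2 and 110.0 CPM in MDA231-LN and 187, 185 and 176 CPM in the parental line. It fell to 55.1% of the parental level, with no overlap of libraries (log2 fold change -0.86 ± 0.06, edgeR adjusted p = 5.89e-12).

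Over the whole route, 12 of 17 tested enzymes fell, 1 rose and 4 did not pass, where 31.2% of all tested genes fell and 31.6% rose. The median log2 fold change of the enzymes was -0.38. Added up, the 17 enzymes came to 1054, 1063 and 1084 CPM in MDA231-LN and to 1390.3, 1412 and 1375 CPM in the parental line. The fall was not even along the route: PMVK, FDPS, TM7SF2 and HSD17B7 fell at least 2-fold, while MVD, LSS, MSMO1 and SC5D gave no call. Levels per exonic kilobase can be set side by side for the enzymes with 0% of exonic bases inside other genes, which are PMVK, MVD, SQLE, LBR, MSMO1, NSDHL, HSD17B7, SC5D and DHCR7. Of these, LBR had the highest level in both lines, at 36.1 CPM per kb in MDA231-LN and 46.6 in the parental line. MSMO1 and DHCR7 came next in MDA231-LN, at 26.2 ± 1.04 and 24.2 ± 2.07 CPM per kb (SD, n = 3 each), with overlapping SD ranges. In the parental line DHCR7 (43.9 CPM per kb) and PMVK (36.6) came next. The counts hold intronic reads while the length is exonic, so these levels are approximate, and those of overlapped genes such as ACAT2 and FDPS are understated and were given no rank.

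**Figure D2:**
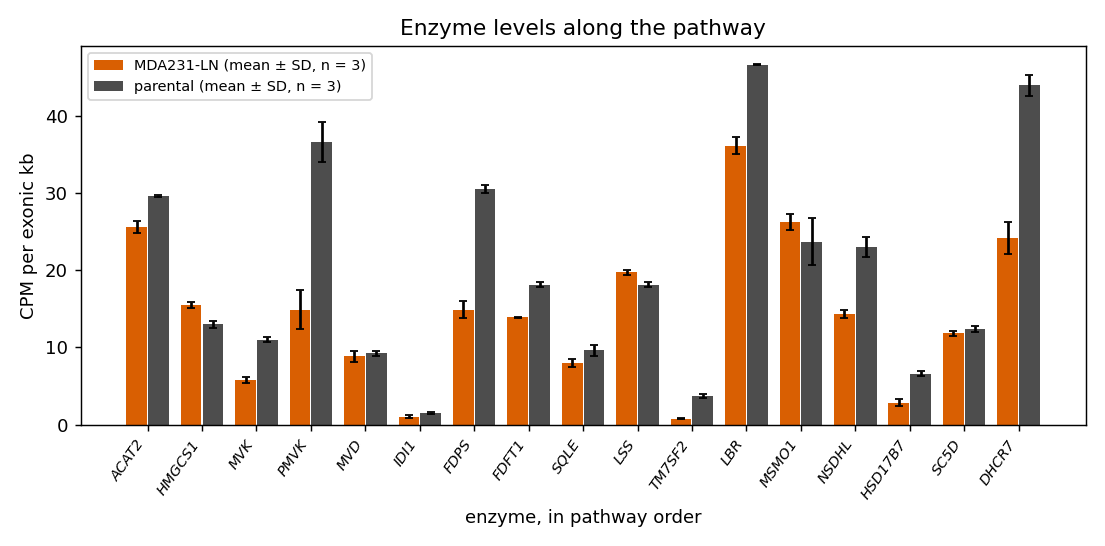
Level of the 17 tested enzymes in CPM per exonic kilobase, in pathway order, MDA231-LN bars left of parental bars (mean ± SD, n = 3 libraries each). The PMVK bar is at 14.9 in MDA231-LN and 36.6 in the parental line, and the FDPS bar at 14.9 and 30.5, while MVD, LSS and SC5D stand at like heights.

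Of the 5 genes of the SREBP system 4 fell and 1 rose, where 31.2% of all tested genes fell and 31.6% rose. SREBF1, which encodes SREBP1, the factor known mainly for fatty acid genes, had 161, 146 and 156 CPM in MDA231-LN and 295, 295 and 274 CPM in the parental line. It fell to 53.6% of the parental level (log2 fold change -0.90 ± 0.06, edgeR adjusted p = 2.82e-13). SREBF2, which encodes the factor known mainly for cholesterol genes, moved less, with 201, 194 and 203 CPM in MDA231-LN and 250.4, 255 and 249 CPM in the parental line (log2 fold change -0.34 ± 0.05, edgeR adjusted p = 4.57e-06). The ratio of SREBF1 to SREBF2 counts was accordingly 0.800, 0.753 and 0.769 in MDA231-LN and 1.18, 1.16 and 1.10 in the parental line. SCAP, the escort, had 143, 136 and 135 CPM in MDA231-LN and 163, 166 and 163 CPM in the parental line (log2 fold change -0.25 ± 0.06, edgeR adjusted p = 4.24e-04).

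The INSIG pair, whose products retain SCAP in the endoplasmic reticulum, moved in opposite directions. INSIG1, itself an SREBP target, had 116, 107 and 118 CPM in MDA231-LN and 146, 143 and 144 CPM in the parental line (log2 fold change -0.35 ± 0.06, edgeR adjusted p = 1.26e-05). INSIG2, which is not induced by SREBP in the same way, had 40.5, 35.6 and 32.6 CPM in MDA231-LN and 31.3, 31.4 and 29.9 CPM in the parental line (log2 fold change 0.23 ± 0.09, edgeR adjusted p = 0.0330). The INSIG2 call was fragile: it was lost without MDA231-LN replicate 1 (edgeR adjusted p = 0.239) or 2 (0.0677) and without parental replicate 1 (0.0635), 2 (0.0512) or 3 (0.0844). The ratio of INSIG2 to INSIG1 counts was 0.349, 0.333 and 0.277 in MDA231-LN and 0.214, 0.219 and 0.208 in the parental line, without overlap.

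**Figure D3:**
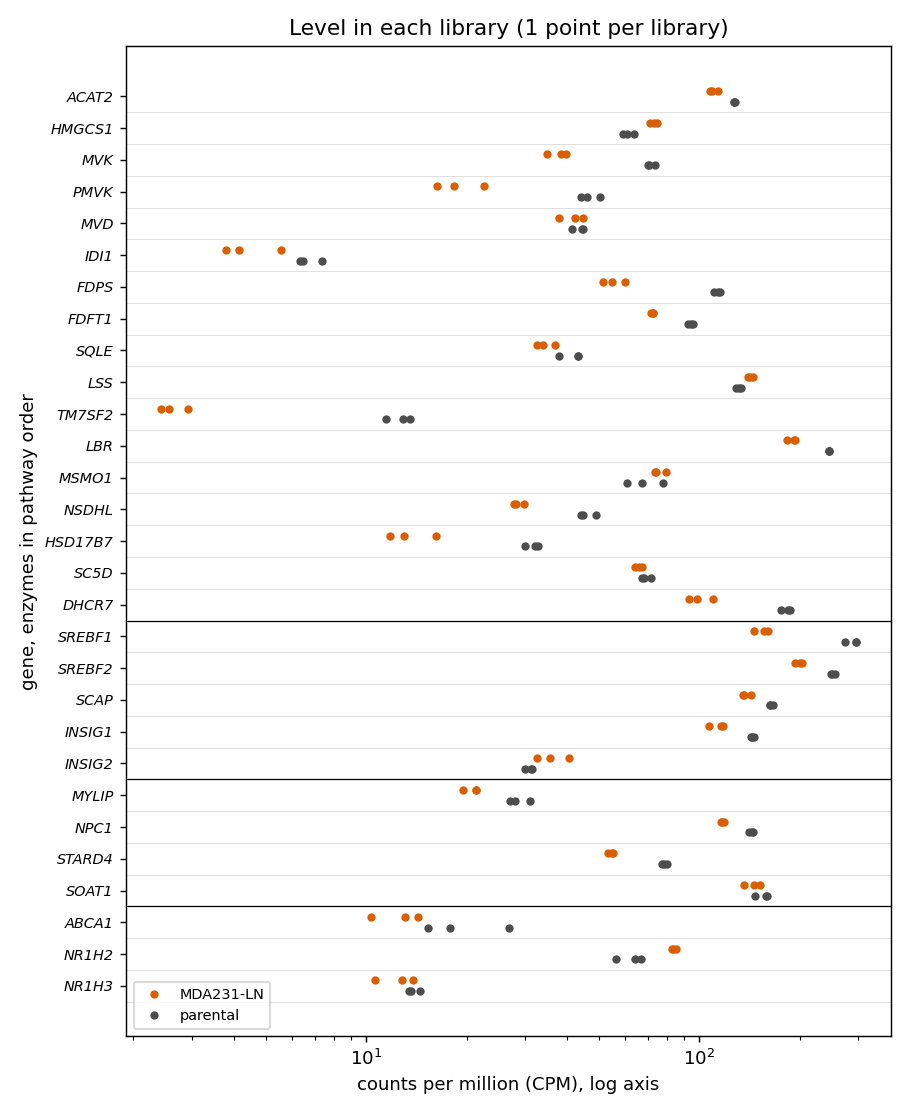
Level of the 29 tested genes in each library (CPM, log axis), MDA231-LN points above parental points in each row. The lines are farthest apart at TM7SF2, SREBF1 separates cleanly at 146 to 161 CPM in MDA231-LN and 274 to 295 CPM in the parental line, and the ABCA1 row shows 1 parental library at 26.9 CPM to the right of the others.

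Promoter sequences were read from RefSeq (GRCh38.p14), which held 29 of the 33 genes, some with several starts, in windows of 250 bases before to 50 after the start. These are not the same 29 genes as those tested. They include GGPS1, CYP51A1 and EBP, which were not tested, and lack the tested genes ACAT2, FDFT1 and SQLE. A sterol regulatory element core, TCACNCCAC on either strand, was found in 1 of these 29 genes, SREBF2, and in 1.37% of the 10379 tested genes with a promoter in the table. The NF-Y box CCAAT, whose factor is a known partner of SREBP, was found in 20 of the 29 genes (69.0%), against 42.8% of tested genes. The untested GGPS1 and EBP are among these 20. The GC box GGGCGG was found in 27 of the 29 (93.1%, against 76.2%), the E-box CACGTG in 5 (17.2%, against 12.2%), and the LXR element, a direct repeat with 4 free bases between its copies, in 0 (against 0.00963%). Matches were sought on both strands and are letters in a window, not shown binding sites. Only exact letters were counted, so variant forms of an element were missed. The sterol core and the LXR element are so rare in this form that their absence does not show that a promoter lacks such elements. Below are the 250 bases before the RefSeq start, written 5′ to 3′ along the gene, of SREBF2, the carrier of the sterol core, and of 3 sterol-step enzymes that fell, picked after their values were seen. Capitals mark NF-Y boxes on either strand and, in SREBF2, the sterol core as well.
SREBF2 (chr22:41832855-41833104, + strand): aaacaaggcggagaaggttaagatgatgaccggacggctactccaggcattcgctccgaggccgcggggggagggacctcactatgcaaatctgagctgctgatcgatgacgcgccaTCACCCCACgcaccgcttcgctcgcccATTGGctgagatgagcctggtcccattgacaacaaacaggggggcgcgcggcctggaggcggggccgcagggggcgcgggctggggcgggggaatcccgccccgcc
TM7SF2 (chr11:65111622-65111871, + strand): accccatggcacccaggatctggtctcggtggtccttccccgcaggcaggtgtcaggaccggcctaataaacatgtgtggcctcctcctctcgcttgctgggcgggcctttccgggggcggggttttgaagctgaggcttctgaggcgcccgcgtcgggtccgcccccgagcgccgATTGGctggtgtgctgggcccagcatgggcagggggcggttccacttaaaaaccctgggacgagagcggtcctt
NSDHL (chrX:152830813-152831062, + strand): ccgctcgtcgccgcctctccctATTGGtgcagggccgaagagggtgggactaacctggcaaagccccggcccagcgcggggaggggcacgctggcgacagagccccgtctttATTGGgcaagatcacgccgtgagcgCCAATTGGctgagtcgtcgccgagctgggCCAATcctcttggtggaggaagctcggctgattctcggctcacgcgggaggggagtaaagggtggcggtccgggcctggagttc
HSD17B7 (chr1:162790452-162790701, + strand): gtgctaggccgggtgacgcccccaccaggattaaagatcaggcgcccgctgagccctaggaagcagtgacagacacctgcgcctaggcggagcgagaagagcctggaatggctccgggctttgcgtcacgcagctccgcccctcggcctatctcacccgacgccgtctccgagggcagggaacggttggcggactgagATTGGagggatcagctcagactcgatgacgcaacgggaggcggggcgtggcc
In SREBF2 the sterol core begins at position -133 and the NF-Y box at -106, counted from the base before the start. NSDHL holds 5 NF-Y boxes in these bases, 2 of them overlapping, while TM7SF2 and HSD17B7 hold 1 each.

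Of the 4 genes of uptake, movement and storage, 3 fell and none rose, where 31.2% of all tested genes fell and 31.6% rose. NPC1, which exports cholesterol from lysosomes after lipoprotein uptake, had 119, 116 and 117 CPM in MDA231-LN and 141, 145 and 144 CPM in the parental line (log2 fold change -0.29 ± 0.06, edgeR adjusted p = 7.02e-05). The neighbouring gene RMC1 overlaps part of it, 29.3% of its exonic bases lying inside other genes. STARD4, a soluble carrier between membranes, had 53.2, 55.1 and 54.7 CPM in MDA231-LN and 77.4, 78.1 and 80.1 CPM in the parental line (log2 fold change -0.53 ± 0.07, edgeR adjusted p = 1.32e-07). MYLIP, an LXR-induced ubiquitin ligase that removes lipoprotein receptors from the surface, had 21.4, 19.5 and 21.4 CPM in MDA231-LN and 27.0, 31.0 and 27.9 CPM in the parental line (log2 fold change -0.46 ± 0.10, edgeR adjusted p = 2.42e-04). Libraries of the lines did not overlap for these 3 genes, as for 66.6% of all tested genes. SOAT1, which esterifies cholesterol for storage in droplets, was not called, with 146, 152 and 136 CPM in MDA231-LN and 147, 159.9 and 159 CPM in the parental line.

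The export genes split. ABCA1, the LXR-induced transporter that loads apolipoproteins with cholesterol, had 13.1, 14.3 and 10.3 CPM in MDA231-LN and 17.8, 15.3 and 26.9 CPM in the parental line. It fell (log2 fold change -0.68 ± 0.16, edgeR adjusted p = 6.53e-04), with parental replicate 3 well above the other 2 parental libraries. Without that library the log2 fold change was -0.41 (edgeR adjusted p = 0.0162). ABCG1, the transporter that passes cholesterol to lipoprotein particles, was near the floor, at 1, 4 and 8 counts in MDA231-LN and 0, 2 and 0 in the parental line, and was not tested. Of the LXR genes, NR1H2, the broadly expressed LXR-beta, rose, with 83.3, 85.2 and 83.0 CPM in MDA231-LN and 63.9, 66.7 and 56.4 CPM in the parental line (log2 fold change 0.43 ± 0.07, edgeR adjusted p = 8.20e-06). NR1H3, LXR-alpha, did not pass, at 12.4 ± 1.65 CPM in MDA231-LN and 13.8 ± 0.557 CPM in the parental line (SD, n = 3 each).

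Several of these genes lie in stretches of chromosome where most genes were lower. Each value is therefore set here beside the median of the other tested genes in the same 10-Mb window, both as log2 fold changes. PMVK and FDPS share a window of chromosome 1 (150 to 160 Mb) in which 130 of 157 other genes fell, with a median of -0.97, close to the FDPS value of -1.03. HSD17B7, in the next window, was at -1.21 where its neighbours had a median of -0.60, and MVK on chromosome 12 at -0.92 with a median of -0.51. NSDHL on chromosome X was at -0.69 with a median of -0.53, and STARD4 on chromosome 5 at -0.53 with a median of -0.63. DHCR7 on chromosome 11 fell less than most of its surroundings: 62 of 69 other genes in its window fell and none rose, their median was -1.48, and 55 of them had a lower value than DHCR7. SC5D, farther along the same chromosome, was at -0.07 where the window median was -0.84. What part the position of these genes has in their differences was not tested.

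Other genes differed from their surroundings. TM7SF2 stood at -2.26 in a window with a median of -0.01, where 3 of 196 other genes had a lower value. SREBF1 stood at -0.90 where its window median was 0.10. INSIG1 fell in a window of chromosome 7 in which 32 of 42 other genes rose and none fell, the median being 0.65, and 1 neighbour had a lower value. ABCA1 had the lowest value of its window, with a median of 0.05 over 26 other genes. The risers INSIG2 and NR1H2 lay in windows with medians of 0.50 and 0.57, above their own values. In all, 23 of the 29 genes lay below the median of their window, with a median difference of -0.22; among all tested genes 49.4% lay below it.

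**Figure D4:**
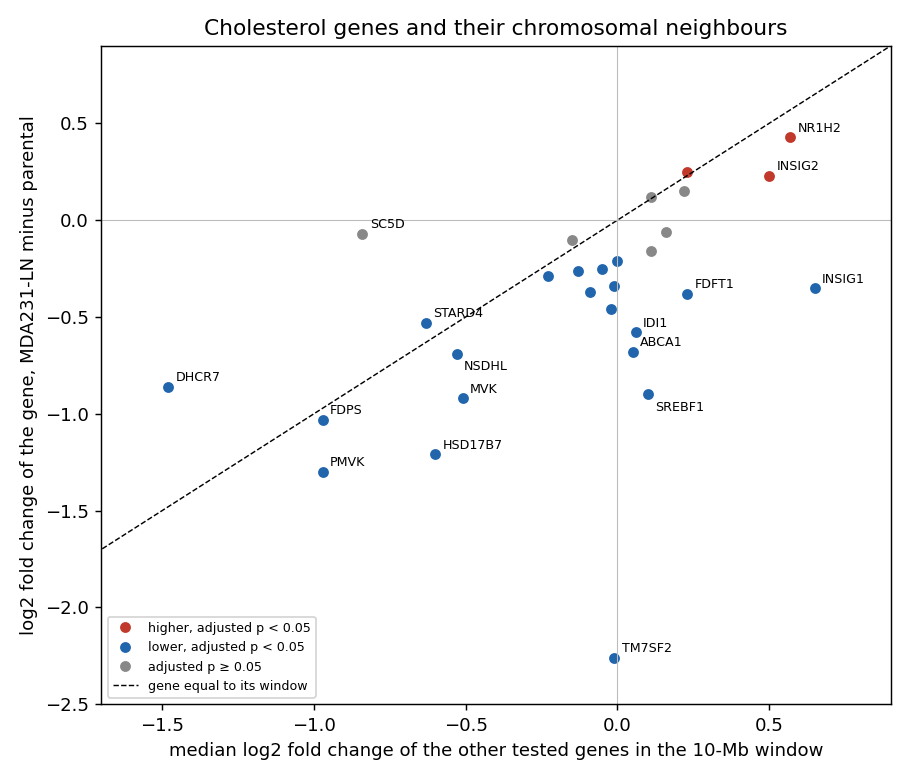
Log2 fold change of each tested cholesterol gene against the median log2 fold change of the other tested genes in its 10-Mb window; the dashed line marks equality. TM7SF2, SREBF1 and INSIG1 lie far below the line with window medians of -0.01, 0.10 and 0.65, FDPS lies near it, and DHCR7 and SC5D lie above it.

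Further genes of the pathway, taken from 6 lists of 76 genes, included 61 that could be tested. Of these 18 rose and 24 fell, where 31.6% of all tested genes rose and 31.2% fell, with a median log2 fold change of -0.04. Of 13 genes that cleave SREBP or degrade pathway proteins in response to sterol, 3 rose and 3 fell; SYVN1, a ubiquitin ligase of the endoplasmic reticulum, was at 64.7, 60.4 and 69.3 CPM in MDA231-LN and 120.3, 112 and 105 CPM in the parental line (log2 fold change -0.79). Of 10 tested genes of the isoprenoid branch, 4 rose (2 without parental replicate 1) and 1 fell. RABGGTB, a subunit of the enzyme that prenylates Rab proteins, was at 145, 144 and 152 CPM in MDA231-LN and 93.9, 87.1 and 90.0 CPM in the parental line (log2 fold change 0.70). Its window median was 0.63.

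Lipoprotein receptors and genes related to them by name went both ways, 3 rising and 3 falling of 8 tested, where 31.6% of all tested genes rose and 31.2% fell. Lipoprotein uptake itself was not measured. LRP5 was at 144, 142 and 139 CPM in MDA231-LN and 332, 339.7 and 347 CPM in the parental line (log2 fold change -1.26), and the sorting receptor SORL1 at 18.3, 15.4 and 15.4 CPM in MDA231-LN and 7.68, 5.39 and 7.76 CPM in the parental line (log2 fold change 1.23). The LRP5 and SORL1 windows had medians of -0.01 and -0.84. Of 14 tested lysosomal and non-vesicular transport genes, 5 rose and 6 fell. LAMP2, a lysosomal membrane protein, was at 178, 169.7 and 169 CPM in MDA231-LN and 289.8, 306 and 295 CPM in the parental line (log2 fold change -0.79). Its window median was -0.88, and 13 of 15 other genes there fell. Of 8 tested genes of sterol esters, oxysterols and further export, 3 rose and 3 fell. NCEH1, a cholesteryl ester hydrolase, was at 139.7, 148 and 148 CPM in MDA231-LN and 301, 344 and 349 CPM in the parental line (log2 fold change -1.19). Its window median was -0.55, and 16 of 26 other genes there fell. ABCG4, a low-level transporter, was at 2.36, 2.44 and 1.95 CPM in MDA231-LN and 0.305, 1.96 and 1.07 CPM in the parental line, with overlapping libraries (log2 fold change 1.02, edgeR adjusted p = 0.0423). Its window median was -0.90. Its call was lost with DESeq2 (adjusted p = 0.0502), without any of the MDA231-LN libraries (edgeR adjusted p = 0.0623 to 0.131) and without parental replicate 1 (0.209) or 3 (0.0741).

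Of the fatty acid genes known as SREBP targets, all 8 that could be tested fell, where 31.2% of all tested genes did, with log2 fold changes of -1.93 to -0.26 and a median of -0.56; FADS1 and THRSP were not tested. The count was 6 with upper-quartile scaling and 7 without MDA231-LN replicate 1 or 3 or without parental replicate 1. PNPLA3, a lipid droplet protein named here after its values were seen, fell with overlapping libraries (log2 fold change -0.30, edgeR adjusted p = 0.0210). FADS2, a fatty acid desaturase, was at 118, 116 and 133 CPM in MDA231-LN and 453, 479 and 465 CPM in the parental line (log2 fold change -1.93). SCD, the stearoyl-CoA desaturase, was at 713, 726 and 748 CPM in MDA231-LN and 1558, 1653 and 1682 CPM in the parental line (log2 fold change -1.16). The FADS2 and SCD windows had medians of -0.01 and 0.20.

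**Figure D5:**
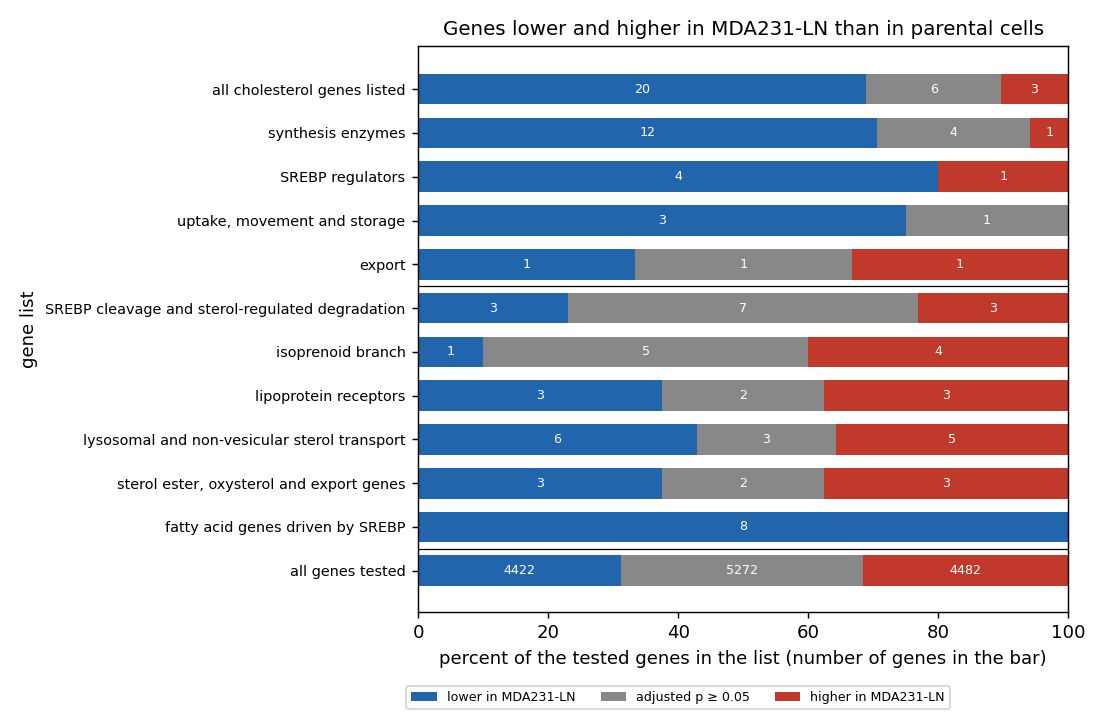
Percent of the tested genes of each list that fell (blue), gave no call (grey) or rose (red) in MDA231-LN, with gene numbers in the bars. The top bar for the listed cholesterol genes (20 fell and 3 rose of 29) and the bar of fatty acid genes (8 of 8 fell) hold larger shares of falls than the bar for all tested genes (4422 fell and 4482 rose of 14176), while the other lists are mixed.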

How the data were processed

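Libraries of 3 MDA231-LN and 3 parental samples were sequenced in pairs, with 150 bases, per the labels' protocols. Per the submitters' processing notes the reads were aligned with STAR to GRCh38; its version is not given in the sources used here. The authors deposited raw counts per gene, made with featureCounts 2.0.1 on Ensembl release 105, per the file headers. The command shown there counts fragments over whole gene spans, introns included, ignores strand, and drops those shared by overlapping genes or with several alignments. Genes lying inside others can therefore be listed near 0 while expressed. DESeq2 is also named in the processing notes, but its output is not used here.

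Symbols were found for 61369 genes (99.7%). Exon lengths, and how much of each gene's exons other genes cover, came from GENCODE 29 on GRCh38. The test was the quasi-likelihood one of edgeR 4.0.16 (R 4.3.3), after TMM scaling and filterByExpr, with Benjamini-Hochberg adjustment over 14176 genes. SE is the absolute log2 fold change divided by the square root of F. CPM used TMM-scaled library sizes. As alternatives, the scaling (RLE, upper-quartile), the filter (none, or 1 CPM in 3 libraries) and the tool (DESeq2 1.42.0, limma-voom 3.58.1) were changed. Others were a block for the replicate number, each library left out, an adjusted p under 0.01, genes with over 50% of exonic bases inside another gene left out, and the median of the 10-Mb window subtracted. On simulated data of 14176 genes, 50 were changed at each fold and the others left alone. Of these 20% were recovered at 1.2-fold, 68% at 1.5-fold, 92% at 2-fold and 96% at 4-fold, with 11 false calls. In the real data 62.8% of tested genes were called, which shifts the adjusted p cut, so these shares need not hold there.

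The genes and lists were chosen with earlier results of these data known. The rule named all 33 genes, and from each further list up to 3 called genes at least 2-fold apart with the smallest adjusted p, or else the 1 with the smallest. Library pairs of a line differed beyond sampling noise (chi-square per degree of freedom 3.73 to 8.47), so none was counted as a repeat. Figures were drawn with matplotlib 3.10.9 in Python 3.11.15.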

Additional observations from a re-analysis of the deposited data

How the results depend on the processing

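Of the 29 tested cholesterol genes, 20 kept their call and direction under the 14 alternatives that gave a test, 17 of them lower, 2 higher and 1 without a call. The number that fell stayed between 18 and 20 over all alternatives and the number that rose between 2 and 5, the highest with upper-quartile scaling. The number of enzymes that rose was 1 as reported, 2 with RLE scaling, with the 1 CPM filter and with DESeq2, and 3 with upper-quartile scaling; with a library left out it was 1 to 2, with 2 where parental replicate 2 was absent. Upper-quartile scaling reversed the uncalled log2 fold changes of MVD (0.05), SC5D (0.04) and SOAT1 (0.01); the median of all tested genes was 0.13 there, against 0.02 as reported. Subtracting the window median reversed the called genes DHCR7 (0.62), INSIG2 (-0.27), STARD4 (0.09) and NR1H2 (-0.14). It also changed the sign of the uncalled genes SC5D (0.76), SOAT1 (0.04) and MSMO1 (-0.07). These values have no test, and the cause was not tested. Library numbers are shared between the lines, but same-numbered libraries did not deviate together (r of -0.004, 0.002 and -0.053). With the replicate number as a block 3 cholesterol genes rose and 20 fell, and 1 and 12 of the enzymes. ABCG1, at 8 counts or fewer in each library, was not tested. CYP51A1, EBP and GGPS1, whose exonic bases lie mostly inside other genes with shared reads not counted, also had too few counts to test. Whether these 4 genes differ between the lines cannot be read from these counts.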
